A study of Mus musculus with 10 samples.

Results

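The genes described here are 10 canonical transcriptional targets of p53 that act in growth control, RNA regulation and cell adhesion: Ccng1, Psrc1, Zmat3, Aen, Phlda3, Trp53inp1, Plk2, Btg2, Perp and Ptprv. Every non-control probe whose gene name or current symbol is one of these was taken, which gave 19 probes of 10 genes among 41174 probes and 27670 gene names on the array. Gene expression was measured with 1-colour Agilent arrays in whole lung of 5 p53-null and 5 wild-type male C57BL/6J mice, 8 weeks old. Both groups had inhaled aerosolized saline for 30 min before the lungs were collected. The series design text calls the 5 samples of each genotype biological replicates. The labels do not name the p53-null allele, and whole lung holds many cell types.

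p53 is a transcription factor that binds paired copies of a short DNA motif near its target genes and raises their transcription. In unstressed cells its protein is kept low by Mdm2, an E3 ubiquitin ligase that marks it for degradation, and many of its targets retain some basal p53-dependent transcription. Its target genes include brakes on the cell cycle and on growth signalling, RNA-binding proteins, a nuclease and a junction protein. The comparison of p53-null with wild-type lung therefore asks how the basal RNA of these targets differs in lung tissue without p53.

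Values are log2 signals of a probe after subtraction of that array's 75th percentile over all non-control spots, so a level is relative to the brighter probes of its own array. A difference is the p53-null mean minus the wild-type mean on that scale. Probes well above background on at least 5 of the 10 arrays were tested with limma, 31598 in all, and a probe was called at a Benjamini-Hochberg adjusted p under 0.05 over all of them. Probe coordinates are those of the array files, on mm7. In bulk tissue, fewer cells of a type and less RNA per cell cannot be told apart.

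The labels were checked against Trp53 itself. A probe of this gene printed on 10 spots of each array (A_52_P491849, chr11:69671206-69671265) read -3.15, -2.99, -3.11, -3.00 and -2.66 in p53-null lungs 1 to 5. In the wild-type lungs it read -1.67, -1.64, -1.54, -1.43 and -2.22. The groups did not overlap, and the difference was -1.28 ± 0.16 (SE, n = 5 each, limma adjusted p = 0.00589). The last value, of the array labelled wild type 5, lay between the groups. A second Trp53 probe (A_52_P781398) differed by 0.31 ± 0.28 (adjusted p = 0.504) with overlapping groups, and without the array labelled wild type 5 by 0.59 (adjusted p = 0.00851). Whether either probe lies in the deleted sequence is not stated in the sources used here, and a probe outside it would not check the labels.

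The array labelled wild type 5 also stood apart in quality. Its signal deviations correlated with probe GC content at 0.354, against 0.004 to 0.202 on the p53-null arrays and -0.324 to 0.003 on the other wild-type arrays, and a fit with array weights gave it 0.171 where the others had 0.802 to 1.881. Results below are therefore given with and without it. Apart from that array, the GC correlation also split by genotype, with every p53-null array above every wild-type array. With the GC trend removed, the 10 lower member probes described below differed by -1.68 to -0.37, and 2271 of all probes were called. Wild-type array 3 had 719 outlier spots, against 51 to 137 on the others. The share of spots well above background was 71.4% to 84.0%. The lung epithelial genes Sftpc, Scgb1a1 and Ager and the endothelial genes Pecam1, Cdh5 and Cldn5 were above background on all 10 arrays.

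Of the 18 member probes that could be tested, 10 were lower in p53-null lung, 1 was higher and 7 did not pass. The background share of all tested probes was 3.10% lower and 4.0% higher, 7.10% in either direction. By gene, Ccng1, Psrc1, Zmat3, Aen and Phlda3 fell with every one of their probes. Ptprv rose with its 1 tested probe, and Trp53inp1, Plk2, Btg2 and Perp had no called probe. That Ptprv probe entered the test through the p53-null group, since only 3 of the 5 wild-type signals cleared background. Its rise and the separation of its groups therefore rest partly on dim wild-type values. The Ptprv call held in 2 of 10 single-array omissions and was lost with normexp background correction (limma adjusted p = 0.0884). The 5 p53-null arrays lay below all 5 wild-type arrays for 10 of the 18 probes and above them for 1, against 4.28% and 4.87% (9.15% in either direction) of all probes with a value on every array. With the brightest probe of each gene alone, 6 of the 10 members and 7.49% of all genes were called. These 11 non-overlapping probes were the called probes. Each had an exact permutation p of 0.00794 (two-sided), the smallest that splits of 5 against 5 arrays allow. Any probe with separate groups has this p, so it adds nothing to their separation.

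The median difference of the 18 probes was -0.39, against 0.04 over all 31598 tested probes. Without the array labelled wild type 5, 10 member probes were lower and 2 were higher, with medians of -0.43 for the members and 0.07 for all probes. Leaving out p53-null array 1 or 3 or wild-type array 2, 3 or 4 left 6 member probes called. Those fits called 302 to 735 of all 31598 probes. Leaving out p53-null array 2, 4 or 5 left 7 member probes, in fits that called 479 to 731 of all probes. Leaving out wild-type array 1 left 9, beside 1299 of all probes. With all arrays 2245 of all probes were called. In the fit without the array labelled wild type 5 the background share was itself 14.3% lower and 16.4% higher, 30.6% in all, so the members' count has to be read against those larger shares.

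**Figure D1:**
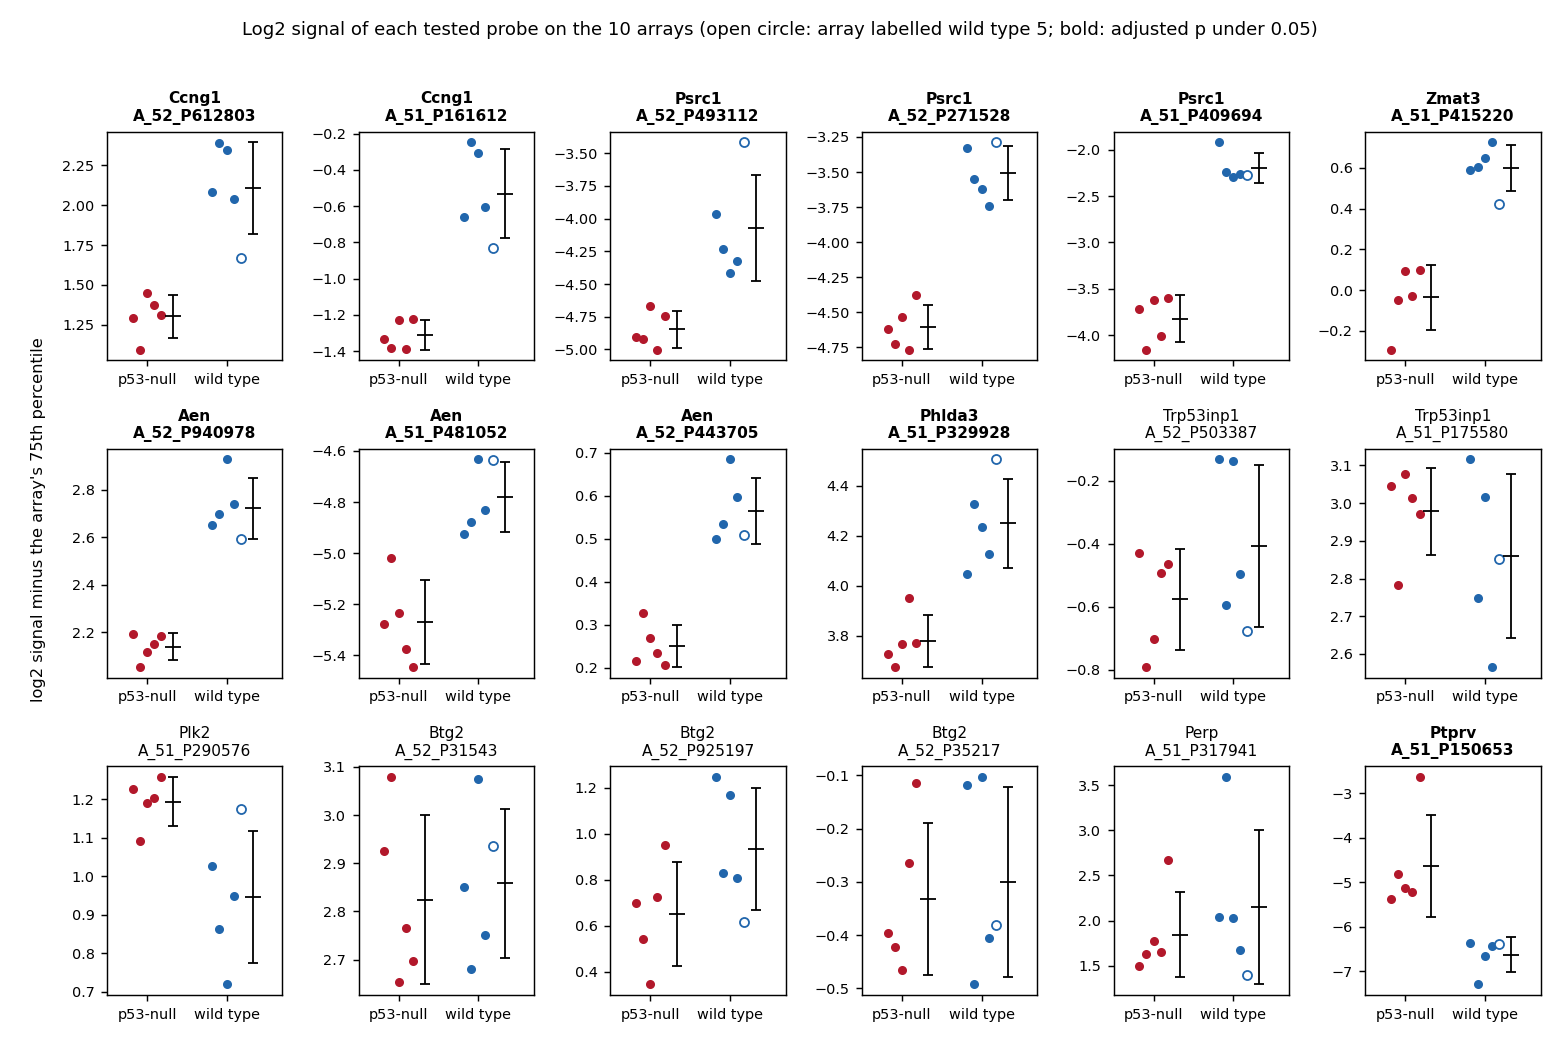
Each panel shows 1 of the 18 tested member probes, with the log2 signal minus the array's 75th percentile on the vertical axis, p53-null arrays on the left, wild-type arrays on the right and the mean ± SD beside each group. The 10 lower probes of Ccng1, Psrc1, Zmat3, Aen and Phlda3 have no p53-null array at the height of a wild-type array, and the open circle marks the array labelled wild type 5.

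Ccng1 encodes cyclin G1, a cyclin that recruits protein phosphatase 2A and takes part in the feedback between p53 and Mdm2. It was read by 2 probes of the same transcript. Probe A_52_P612803 (chr11:40691782-40691841) read 1.29, 1.09, 1.45, 1.38 and 1.31 in p53-null lungs, against 2.09, 2.39, 2.35, 2.04 and 1.67 in wild-type lungs. All p53-null arrays were lower than all wild-type arrays, and the lowest wild-type value was that of the array labelled wild type 5. The difference was -0.80 ± 0.14 (SE, adjusted p = 0.0177), a level 1.74-fold higher in wild-type lung.

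The second Ccng1 probe, A_51_P161612 (chr11:40693768-40693827), read -1.33, -1.39, -1.23, -1.39 and -1.22 in p53-null lungs, against -0.66, -0.25, -0.31, -0.61 and -0.83 in wild-type lungs. Its groups again did not overlap, and the p53-null arrays were the tighter group (SD 0.083, against 0.25 in wild type). The difference was -0.78 ± 0.12 (adjusted p = 0.0125). The 2 probes did not differ in their response beyond the spread between arrays (difference of the differences -0.02, exact permutation p = 0.786). Both kept their call whichever single array was left out, and without the array labelled wild type 5 they differed by -0.91 and -0.86 (adjusted p = 0.000855 and 0.000944). Ccng1 lies on the chromosome of Trp53, 28.977 Mb from the first Trp53 probe on mm7.

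The promoter windows of 2 members hold a p53 half-site, the 10-base motif of which a full p53 site has 2 copies, and they are shown because they hold it and both genes fell. The windows of Psrc1 (2) and Phlda3, which also fell, and those of Btg2 and Plk2, which were not called, hold none. Promoter windows of RefSeq (GRCm38.p6, 250 bases before to 50 after a transcript start) were held for 6 of the 10 members, 8 windows in all. The half-site was searched by its consensus, which reads the same on both strands, and only exact matches at all 10 bases were counted. It occurred in 8.36% of all 32851 windows and in 3 of the members' 8, of which 1 is for Ccng1 and 2 overlapping Aen windows share 1 half-site. No member window held 2 such exact half-sites within 13 bases of each other, a spacing found in 0.0731% of all windows. Sites with a mismatch were not searched for. The 10 bases directly before the Ccng1 half-site miss the consensus at 1 position, so they were not counted. The match is a description of these letters only. The windows are written in the gene's own direction, with the half-site in capitals, which starts at position -185 from the Ccng1 start and -121 from the Aen start.

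Ccng1 promoter chr11:40755237-40755536 minus strand: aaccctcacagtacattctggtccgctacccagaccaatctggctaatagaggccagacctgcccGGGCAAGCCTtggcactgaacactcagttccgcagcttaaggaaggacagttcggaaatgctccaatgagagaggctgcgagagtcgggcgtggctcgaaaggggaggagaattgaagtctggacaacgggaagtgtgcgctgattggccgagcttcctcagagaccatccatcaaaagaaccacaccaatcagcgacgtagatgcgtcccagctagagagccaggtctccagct

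Aen promoter chr7:78895808-78896107 plus strand: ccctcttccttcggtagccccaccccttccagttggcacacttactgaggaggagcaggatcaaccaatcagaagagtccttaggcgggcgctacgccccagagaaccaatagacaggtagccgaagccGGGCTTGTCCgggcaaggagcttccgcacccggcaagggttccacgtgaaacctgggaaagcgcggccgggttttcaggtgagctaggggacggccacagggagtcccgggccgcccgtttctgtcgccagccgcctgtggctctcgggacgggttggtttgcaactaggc

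Psrc1 encodes a microtubule-associated protein of the mitotic spindle, and it had the lowest difference of any member. Its 3 probes target 1 transcript and lie on mm7 in the order A_52_P493112 (chr3:108204964-108205023), A_52_P271528 (chr3:108205900-108205959) and A_51_P409694 (chr3:108206316-108206375). Their sequences, 60 bases each from the array files, are given because their measured differences were unequal.

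Psrc1 A_52_P493112: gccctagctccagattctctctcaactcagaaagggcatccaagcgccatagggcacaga

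Psrc1 A_52_P271528: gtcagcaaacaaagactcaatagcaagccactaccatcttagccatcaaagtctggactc

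Psrc1 A_51_P409694: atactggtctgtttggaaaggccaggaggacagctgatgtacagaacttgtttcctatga

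Probe A_51_P409694 read -3.72, -4.16, -3.62, -4.01 and -3.60 in p53-null lungs, against -1.92, -2.24, -2.30, -2.26 and -2.27 in wild-type lungs. The gap between the groups exceeded the range within either. Its difference was -1.62 ± 0.13 (adjusted p = 0.000475), a level 3.08-fold higher in wild-type lung, and 14 of the 31598 tested probes had a lower difference.

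Probe A_52_P271528 read -4.62, -4.72, -4.53, -4.77 and -4.38 in p53-null lungs, against -3.33, -3.55, -3.62, -3.74 and -3.29 in wild-type lungs, again without overlap. Its difference was -1.10 ± 0.12 (adjusted p = 0.0028), a level 2.14-fold higher in wild-type lung. With normexp background correction the difference was smaller, -0.78, and still called (limma adjusted p = 0.00885). Both of these Psrc1 probes kept their call whichever array was left out, and without the array labelled wild type 5 their differences were -1.64 and -1.04.

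The remaining Psrc1 probe, A_52_P493112, read -4.90, -4.92, -4.66, -5.0 and -4.74 in p53-null lungs, against -3.97, -4.23, -4.41, -4.33 and -3.42 in wild-type lungs. The highest value was that of the array labelled wild type 5. The difference was -0.77 ± 0.18 (adjusted p = 0.0358), and without that array -0.61 (adjusted p = 0.00431). With normexp background correction it was -0.46 and not called (adjusted p = 0.106). Leaving out any other array ended the call, with adjusted p from 0.0553 to 0.0845.

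In all, 11 pairs of probes of the same gene were compared for unequal response, with an exact permutation test over arrays adjusted over the 11 pairs. A_51_P409694 fell by 0.53 more than A_52_P271528 (exact p = 0.00794, adjusted p = 0.0437). It differed from A_52_P493112 by -0.85 (exact p = 0.0159, adjusted p = 0.0583). A_52_P271528 differed from A_52_P493112 by -0.32 (exact p = 0.0476, adjusted p = 0.0873). Neither of these pairs passed the adjustment. Wild-type means were -2.20 at A_51_P409694, -3.51 at A_52_P271528 and -4.07 at A_52_P493112, so the dimmer probes fell less. The part of signal level in this was not tested.

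Plk2, a polo-like kinase that acts in centriole duplication, was measured by 1 probe, A_51_P290576 (chr13:107549252-107549311). It read 1.23, 1.09, 1.19, 1.20 and 1.26 in p53-null lungs, against 1.03, 0.86, 0.72, 0.95 and 1.18 in wild-type lungs. The array labelled wild type 5 was the only wild-type array inside the p53-null range. The difference was 0.25 ± 0.094 (95% interval 0.039 to 0.46), and it did not pass the adjustment over all probes (adjusted p = 0.125, exact permutation p = 0.0159). Without the array labelled wild type 5 the groups did not overlap, as for 14.9% of all probes in that direction, and the difference of 0.31 passed (adjusted p = 0.0181), in a fit that called 16.4% of all probes higher. Leaving out any other array gave adjusted p from 0.151 to 0.273.

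Btg2 is an antiproliferative protein that works with the CCR4-NOT deadenylase, and it is also induced rapidly by stress and growth signals. None of its 3 probes was called. Probe A_52_P31543 (chr1:133965302-133965361) read 2.93, 3.08, 2.65, 2.77 and 2.70 in p53-null lungs, against 2.85, 2.68, 3.08, 2.75 and 2.94 in wild-type lungs. The groups covered nearly the same range, with a difference of -0.03 (95% interval -0.28 to 0.21, adjusted p = 0.88). Its sign turned to positive under quantile scaling (0.0022) and after removal of the GC trend (0.0449).

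Btg2 probe A_52_P35217 (chr1:133967389-133967448) read -0.40, -0.42, -0.47, -0.26 and -0.11 in p53-null lungs, against -0.12, -0.49, -0.10, -0.40 and -0.38 in wild-type lungs. It too overlapped fully and differed by -0.03 (95% interval -0.27 to 0.21, adjusted p = 0.884). These intervals are those of the comparison of all 10 arrays. With the slide as a block the first probe differed by 0.33, and without the array labelled wild type 5 and with the GC trend removed the second differed by -0.29, neither called.

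The third Btg2 probe, A_52_P925197 (chr1:133967124-133967183), read 0.70, 0.54, 0.35, 0.72 and 0.95 in p53-null lungs, against 1.25, 0.83, 1.17, 0.81 and 0.62 in wild-type lungs. The 2 highest values were wild-type arrays 1 and 3, and the array labelled wild type 5 lay among the p53-null arrays. Its difference was -0.28 ± 0.15 (95% interval -0.62 to 0.055, adjusted p = 0.26), and without the array labelled wild type 5 it was -0.36 (adjusted p = 0.0907). With that array left out and the GC trend removed, a run added after the data were seen, it was -0.65 (adjusted p = 0.018). That fit called 8407 of all 31598 tested probes, 4607 of them lower.

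A list of 12 immediate early genes (Fos, Egr1, Junb and others) was examined beside Btg2. Its score, the mean log2 deviation of its genes on an array, ran from -0.19 to 0.07 in p53-null lungs and from -0.28 to 0.42 in wild-type lungs, with 0 of its 12 genes called by limma. The highest score was that of wild-type array 3 (0.42), and the lowest that of the array labelled wild type 5 (-0.28). The part of these scores in the Btg2 values was not tested.

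Zmat3 encodes a zinc-finger protein that binds RNA and takes part in splicing and RNA stability. Its 1 probe (A_51_P415220, chr3:32143676-32143735) read -0.29, -0.05, 0.09, -0.03 and 0.10 in p53-null lungs, against 0.59, 0.60, 0.65, 0.73 and 0.42 in wild-type lungs. All p53-null arrays were lower, and the array labelled wild type 5 was the lowest wild-type array. The difference was -0.63 ± 0.098 (adjusted p = 0.0126), a level 1.55-fold higher in wild-type lung. The call held whichever array was left out, and without the array labelled wild type 5 the difference was -0.68 (adjusted p = 0.00137).

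Aen, listed in the array files as Isg20l1, encodes a nuclease that promotes apoptosis. It was read by 3 probes. A_51_P481052 (chr7:74765528-74765587) and A_52_P443705 (chr7:74771219-74771278) were designed on its RefSeq transcript. A_52_P940978 was designed on an expressed sequence tag that the array files place on another chromosome (chr4:14158325-14158384), and it is counted here only because the files give it the name of this gene. Its 3′ end carries a run of 6 A bases, in capitals below.

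Aen A_52_P940978: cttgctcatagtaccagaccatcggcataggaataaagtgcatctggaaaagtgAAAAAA

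Aen A_51_P481052: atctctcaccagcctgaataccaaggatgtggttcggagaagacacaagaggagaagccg

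Aen A_52_P443705: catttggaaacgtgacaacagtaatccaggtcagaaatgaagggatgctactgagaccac

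A_52_P940978 read 2.19, 2.05, 2.11, 2.15 and 2.18 in p53-null lungs, against 2.65, 2.70, 2.93, 2.74 and 2.59 in wild-type lungs. The groups were narrow and did not overlap. The difference was -0.58 ± 0.081 (adjusted p = 0.0101), and the call held whichever array was left out.

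A_51_P481052 read -5.28, -5.02, -5.24, -5.37 and -5.45 in p53-null lungs, against -4.93, -4.88, -4.63, -4.83 and -4.64 in wild-type lungs. The groups did not overlap, with p53-null array 2 close to wild-type array 1. Its difference was -0.49 ± 0.10 (adjusted p = 0.0292). Leaving out p53-null array 2, wild-type array 1 or the array labelled wild type 5 kept the call, and leaving out any of the other 7 ended it (adjusted p from 0.0566 to 0.0787). With normexp background correction it differed by -0.27 and was not called (adjusted p = 0.122).

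A_52_P443705 read 0.22, 0.33, 0.27, 0.23 and 0.21 in p53-null lungs, against 0.50, 0.53, 0.68, 0.60 and 0.51 in wild-type lungs. The groups were again separate, with the smallest difference among the called probes, -0.31 ± 0.069 (adjusted p = 0.032). Its call held only without wild-type array 1 or the array labelled wild type 5, with adjusted p from 0.0560 to 0.0846 in the other 8 fits. It fell by 0.27 less than the expressed-tag probe (exact permutation p = 0.00794, adjusted over the 11 pairs 0.0437), while A_51_P481052 and the expressed-tag probe did not differ beyond their spread (exact p = 0.484).

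Phlda3 encodes a small pleckstrin-homology protein that competes with Akt for membrane lipids and so restrains growth signalling. Its probe (A_51_P329928, chr1:135655060-135655119) read 3.73, 3.67, 3.77, 3.95 and 3.77 in p53-null lungs, against 4.05, 4.33, 4.24, 4.13 and 4.51 in wild-type lungs. The highest p53-null array was close to the lowest wild-type array, and the highest value was that of the array labelled wild type 5. The difference was -0.47 ± 0.10 (adjusted p = 0.0306), and without that array -0.41 (adjusted p = 0.00774). The call also held without p53-null array 4 or wild-type array 1, and was lost when any of the other 7 was left out (adjusted p from 0.0516 to 0.0788).

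Trp53inp1 encodes a stress-induced protein that acts with p53 in the nucleus and in autophagy. Its 2 probes are shown because one of them carries an internal repeat, a stretch of 26 bases that occurs 2 times in a row, in capitals.

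Trp53inp1 A_52_P503387: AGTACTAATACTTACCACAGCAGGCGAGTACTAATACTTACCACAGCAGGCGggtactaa

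Trp53inp1 A_51_P175580: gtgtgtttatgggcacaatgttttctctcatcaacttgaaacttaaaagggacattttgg

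Neither was called. A_52_P503387 (chr4:11098180-11098239) read -0.43, -0.79, -0.70, -0.49 and -0.46 in p53-null lungs, against -0.13, -0.60, -0.14, -0.49 and -0.68 in wild-type lungs. The groups overlapped, with a difference of -0.17 ± 0.13 (95% interval -0.47 to 0.13, adjusted p = 0.451).

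A_51_P175580 (chr4:11101174-11101233) read 3.04, 2.78, 3.08, 3.01 and 2.97 in p53-null lungs, against 3.12, 2.75, 3.02, 2.56 and 2.85 in wild-type lungs. Here the difference was 0.12 ± 0.11 (95% interval -0.14 to 0.37, adjusted p = 0.543), again with overlapping groups. The 2 probes differed in their response by -0.29 (exact permutation p = 0.0317, adjusted over the 11 pairs 0.0697), which did not pass. The interval of the probe without the repeat does not reach the differences measured at Ccng1, Psrc1 or Zmat3.

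Ptprv encodes a receptor-type tyrosine phosphatase that in mouse cells contributes to p53-dependent cell cycle exit. It was the 1 member with a higher probe. A_51_P150653 (chr1:134999390-134999449) read -5.38, -4.82, -5.14, -5.21 and -2.62 in p53-null lungs, against -6.36, -7.30, -6.67, -6.43 and -6.39 in wild-type lungs. It was well above background on all 5 p53-null arrays and on 3 of the 5 wild-type arrays. All p53-null arrays were higher, and p53-null array 5 was far above the other 4.

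The Ptprv difference was 2.0 ± 0.49 (adjusted p = 0.0407). The 5 p53-null arrays, where it is high, were enough for it to be tested, and 2 wild-type arrays were not well above background, so the size of the difference is uncertain. Without p53-null array 5 it was 1.5 and still called, without the array labelled wild type 5 it was 2.06 (adjusted p = 0.021), and without any of the other 8 arrays it lost its call (adjusted p from 0.0636 to 0.10). With normexp background correction the difference was 1.10 (adjusted p = 0.0884). On p53-null array 5 the squamous epithelial and skeletal muscle lists described below were also high, and their part in the Ptprv value was not tested.

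The other Ptprv probe, A_52_P616544, spans 787 bases on mm7 (chr1:135001205-135001991). It passed background on 1 p53-null array and on none of the wild-type arrays, so it was not tested and no fold is given. Its signals were -8.27, -7.43, -8.31, -9.00 and -8.97 in p53-null lungs and -8.70, -8.61, -10.45, -8.85 and -8.52 in wild-type lungs, with overlapping groups. Ptprv lies on chromosome 1 between Btg2 and Phlda3, 1.032 Mb and 0.653 Mb from their probes on mm7. Among these neighbours Phlda3 fell, Ptprv rose and Btg2 was not called.

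Perp is a tetraspan membrane protein of desmosomes, abundant in stratified epithelia. Its probe (A_51_P317941, chr10:18579623-18579682) read 1.5, 1.63, 1.77, 1.65 and 2.67 in p53-null lungs, against 2.04, 3.59, 2.03, 1.67 and 1.40 in wild-type lungs. A single array of each group, p53-null 5 and wild type 2, was far above the rest. The difference was -0.30 ± 0.39 (95% interval -1.18 to 0.57, adjusted p = 0.667).

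The same 2 arrays had the highest scores of 8 squamous epithelial genes (keratins such as Krt5 and Krt13, Sprr and Dsg3). The scores were -1.32, -0.44, -1.26, -1.11 and 3.59 in p53-null lungs, against -1.41, 4.86, -1.25, -1.27 and -0.39 in wild-type lungs. All 8 genes were above background on at least 1 array, 4 on all 10, and 0 of the 6 tested were called. Skeletal muscle genes were high on p53-null arrays 4 and 5 and on wild-type array 2, at 3.18, 2.93 and 3.93, against -2.05 to -1.08 on the other arrays. Without wild-type array 2 the Perp difference was 0.06 (adjusted p = 0.916), and without both wild-type array 2 and p53-null array 5 it was -0.15. The next highest squamous scores were those of the array labelled wild type 5 and p53-null array 2, with Perp at 1.40 and 1.63. The part of the squamous and muscle lists in the Perp values was not tested.

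**Figure D2:**
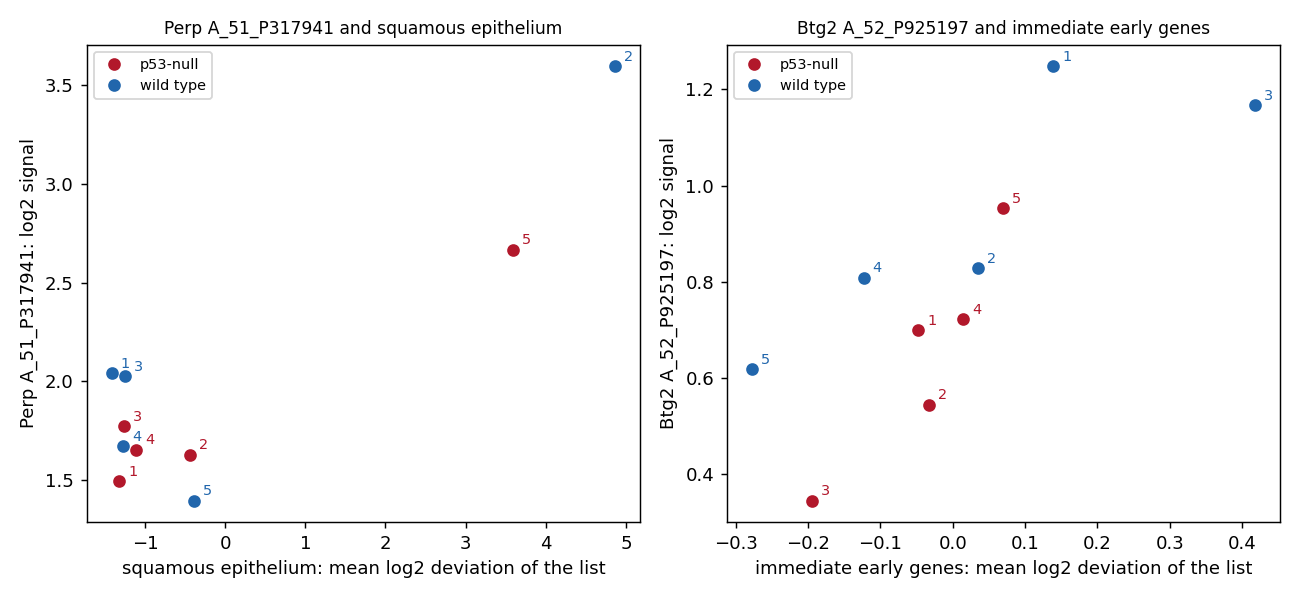
The left panel plots Perp log2 signal on each array against the squamous epithelial score, and the right panel Btg2 A_52_P925197 against the immediate early gene score, with p53-null arrays in red, wild-type arrays in blue and the replicate number beside each point. The 2 arrays with the highest squamous scores have the 2 highest Perp values, 2.67 on p53-null array 5 and 3.59 on wild-type array 2.

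**Figure D3:**
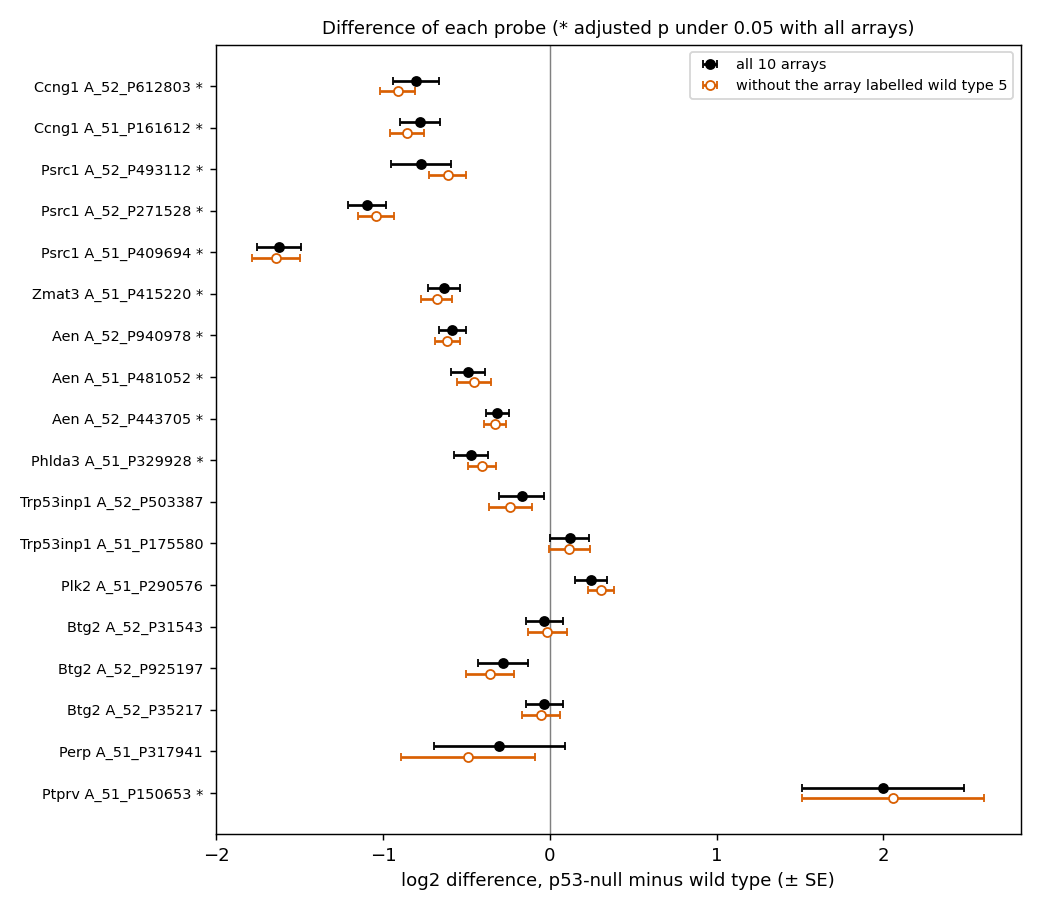
The horizontal axis gives the p53-null minus wild-type difference ± SE of each tested member probe, with all 10 arrays (black) and without the array labelled wild type 5 (open orange). Called probes range from -1.62 at Psrc1 to 2.0 at Ptprv. Leaving out that array turns no sign, which for the called probes was fixed by their separate groups.

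Markers of other lung cells moved with genotype. Neutrophil scores were 0.45 to 1.36 in p53-null lungs, against -1.36 to -0.38 in wild-type lungs, and 8 of 8 neutrophil genes were called higher. B cell scores were 0.22 to 1.27 in p53-null lungs, against -1.24 to -0.18 in wild-type lungs, with 5 of 7 genes higher. T cell scores were 0.10 to 0.67 in p53-null lungs, against -0.84 to -0.18 in wild-type lungs, with 5 of 7 genes higher. All genes of these 3 lists were above background on all 10 arrays.

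Scores of 12 mitotic genes were -0.21 to 0.54 in p53-null lungs, against -0.38 to 0.22 in wild-type lungs, with 0 genes called by limma, and the mitotic genes are the list nearest to the spindle role of Psrc1. Endothelial scores were -0.21 to -0.03 in p53-null lungs, against -0.05 to 0.28 in wild-type lungs, and 0 of 3 genes were called. The lowest wild-type endothelial score was that of the array labelled wild type 5, and the other wild-type arrays had 0.10 to 0.28. Epithelial scores were -0.09 to 0.22 in p53-null lungs, against -0.35 to 0.41 in wild-type lungs, also with 0 of 3 called. The part of these cell lists in the members' differences was not tested.

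The arrays lay on 6 slides, numbered in a lower and a higher range. The lower slide numbers held 4 p53-null and 3 wild-type arrays, and the higher held p53-null array 2 with wild-type arrays 3 and 4. Over the 10 lower probes the differences ran from -1.62 to -0.31 with all arrays, from -1.59 to -0.28 within the lower slide numbers and from -1.88 to -0.29 within the higher. On the 1 slide that held both groups, p53-null array 2 minus wild-type array 4 ran from -1.90 at Psrc1 to -0.19 at Aen. All 10 probes kept their sign within each range. Their groups do not overlap, so this sign was fixed in advance there and on the shared slide. Ptprv A_51_P150653 differed by 2.10 within the lower slide numbers and by 1.73 within the higher.

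Other p53 target genes were examined in a list of 30 genes that holds brakes on the cell cycle, death receptors, BCL2-family genes and metabolic targets. Of their 53 tested probes, 4 were lower, 2 were higher and 47 were not called, 6 probes against a background of 7.10%. Their median difference was -0.06, against -0.39 for the 18 member probes and 0.04 for all probes. By gene, 4 had a lower probe, 1 had higher probes and 25 had none called. Without the array labelled wild type 5, 11 of the 53 probes were lower and 7 higher, in the fit that called 14.3% of all probes lower and 16.4% higher.

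The lower probes belonged to Eda2r, Slc19a2, Cdkn1a and Tnfrsf10b. Eda2r, a receptor of the tumour necrosis factor family, differed by -2.62 ± 0.22 at probe A_52_P354844 (adjusted p = 0.00051), with p53-null arrays from -7.35 to -6.24 and wild-type arrays from -4.39 to -3.66. It kept its call whichever array was left out, and 4 of the 5 p53-null arrays and all wild-type arrays were well above background, so the size rests partly on a dim signal. The other 2 Eda2r probes were too dim to be tested. Cdkn1a, the cyclin-dependent kinase inhibitor p21, differed by -1.07 ± 0.20 (adjusted p = 0.023), with 1.11 to 1.48 in p53-null lungs and 1.85 to 3.02 in wild-type lungs.

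Slc19a2, a thiamine transporter, differed by -0.72 ± 0.13 (adjusted p = 0.0212). Cdkn1a and Slc19a2 each stayed called in 6 of the 10 single-array omissions, with adjusted p up to 0.0675 and 0.057 in the others. Tnfrsf10b, the death receptor for TRAIL, differed by -1.42 ± 0.29 at 1 probe (A_52_P10134, adjusted p = 0.0256, called in 4 of 10 omissions and up to 0.0701 in the others). That probe was well above background on 3 of 5 p53-null arrays and on all wild-type arrays, so the size of its difference is uncertain, while its other 2 probes gave -0.69 (adjusted p = 0.238) and -0.32 (adjusted p = 0.512). The higher probes were 2 of Dcxr, a carbonyl reductase, at 0.48 and 0.49 (adjusted p = 0.0403 and 0.0411), each called in 1 of 10 omissions with adjusted p up to 0.107, beside a further Dcxr probe at 0.11 (adjusted p = 0.658).

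**Figure D4:**
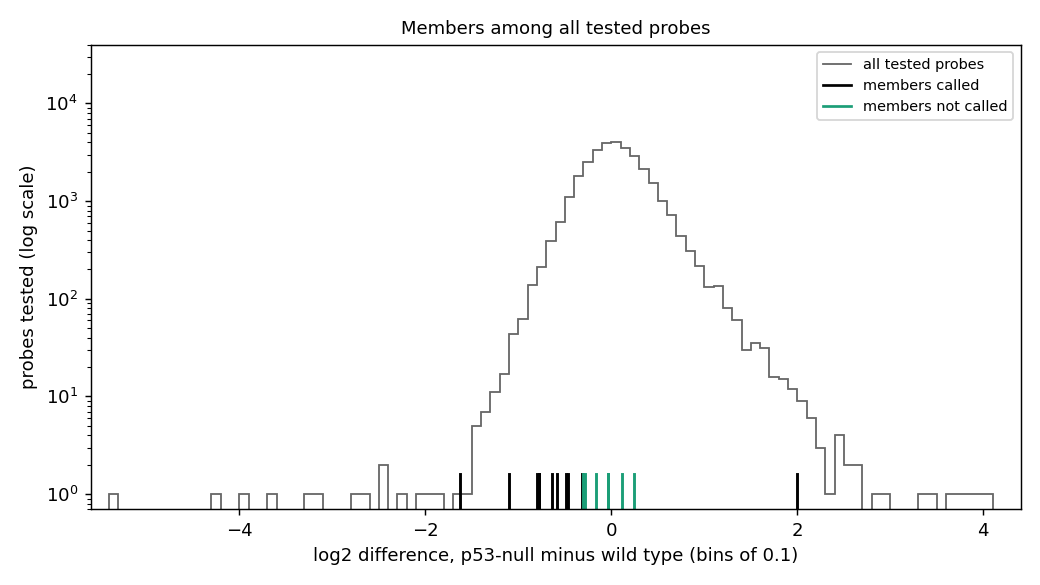
The grey outline counts all 31598 tested probes by their p53-null minus wild-type log2 difference in bins of 0.1, on a log vertical axis, and the short vertical bars mark the 18 member probes (black called, green not called; bar height carries no value). The 10 lower member probes lie between -1.62 and -0.31, the 7 uncalled ones between -0.30 and 0.25, and Ptprv at 2.0.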

How the data were processed

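Cy3-labelled cRNA was made from total RNA of whole lung, per the labels' protocols, and read on Agilent arrays of 1 colour. The submitters' processing notes name Agilent Feature Extraction 9.5 for the signals. The deposited intensity is the processed signal, background-subtracted within each array per the file headers, and the deposited series table held the same intensity values (largest difference 0).

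From these, log2 signals were taken relative to the 75th percentile of an array's 43379 non-control spots. Outlier spots were left out and spots of a probe averaged. Each member probe has 1 spot, and none was saturated. Probes were named by accession (22951), symbol (6659) or synonym (3109) in a table of GRCm38.p6 used for names only, and 8455 kept the file's name. The test used lmFit and eBayes of limma 3.58.1 under R 4.3.3. The named genes are every member probe, Trp53, and of the other p53 targets up to 6 called genes by smallest p with any called gene of the other direction. Members and lists were chosen with earlier results of these data known. Array number limits the precision. In simulated data on 31598 probes, 15 of 67 probes changed 1.5-fold were recovered, 44 of 67 changed 2-fold and 55 of 66 changed 4-fold, with 8 false calls. The simulated arrays had independent noise and few changed probes. They had no slides, GC trends or array of lower quality, so these counts do not give the recovery or false calls of the real comparison. Alternatives covered background, scaling, filter, probe choice, replicate number, slide, day of scan, array weights, variance model and arrays left out. Those that leave out pairs of arrays, or remove the GC trend with an array left out, were added after the data were seen.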

Additional observations from a re-analysis of the deposited data

Results flagged for a closer look

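A gap between 1 array and the rest of its group was looked for in 38 groups of 5 arrays, 1 probe and genotype each, and 4 groups had a gap of more than 0.71 of their range. Chance alone singles out about 1 in 20 groups. Psrc1 A_51_P409694 read -1.92 on wild-type array 1, with the nearest wild-type array at -2.24 (gap 0.847 of the range). Perp A_51_P317941 read 2.67 on p53-null array 5, with the nearest p53-null array at 1.77 (0.762 of the range). Ptprv A_51_P150653 read -2.62 on p53-null array 5, with the nearest p53-null array at -4.82 (0.797 of the range). Ptprv A_52_P616544 read -10.45 on wild-type array 3, with the nearest wild-type array at -8.85 (0.831 of the range), and it was below background on all wild-type arrays.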

How the results depend on the processing

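Of the 11 called member probes none changed sign under any alternative run, but many lost their call, and the cause was not tested. Their groups do not overlap, so runs that only leave out arrays or compare arrays within slides or slide ranges could not turn a sign. The counts of called probes by limma, for members, for the other p53 targets and for all tested probes, were 11, 6 and 2245. They were 2, 1 and 32 with a replicate block, 0, 0 and 0 with slide fixed as a block, 1, 1 and 19 within the lower slide numbers, and 0, 0 and 0 within the higher. The scan day as a block gave 6, 2 and 450, as did leaving out wild-type array 3, the only array of the later scan day. Leaving out p53-null arrays 4 and 5 with wild-type array 2, they were 0, 0 and 12, and leaving out p53-null array 5 with wild-type array 2 they were 3, 1 and 70. At an adjusted p under 0.01 they were 2, 1 and 88. Without the filter on dim probes 6 of 19 member probes and 749 of 41173 probes were called. With 1 probe a gene 6 of 10 members and 1581 of 21117 probes were called. Other targets and all probes numbered 19 and 9625 with array weights, 15 and 6715 without wild-type array 3 and the array labelled wild type 5, 22 and 8407 without the array labelled wild type 5 and with the GC trend removed, and 14 and 5165 at an adjusted p under 0.10. The slide number range as a block gave 1018 probes. Where the counts were 0, the slide block had 4, 2 and 1593 probes at an unadjusted p under 0.05, the higher slides 7, 7 and 4118, and the 3 arrays left out 11 members and 13 others. The slide block and the higher slides rest on 1 p53-null array. Leaving out 1 array gave 6 to 12 members, 1 (without p53-null array 3) to 18 others and 302 (without p53-null array 3) to 9684 probes (without the array labelled wild type 5). Replicate numbers do not pair the arrays (correlations of deviations -0.117, -0.23, 0.007, -0.151 and -0.223). Uncalled probes whose sign turned were Trp53inp1 A_51_P175580 within the higher slides (-0.0062) and Perp without wild-type array 2 (0.0586). Leaving out single arrays gave -0.5088 to 0.0586 for Perp, -0.0976 to 0.0206 for Btg2 A_52_P31543 and -0.0867 to 0.0172 for Btg2 A_52_P35217. Btg2 A_52_P31543 turned under quantile scaling (0.0022), slide block (0.33), slide range block (0.0027), the higher slides (0.17), scan day block or without wild-type array 3 (0.0206), GC removal (0.0449), without p53-null array 3 (0.0089), without wild-type array 3 and the array labelled wild type 5 (0.0642), and without the last with GC removed (0.12). Btg2 A_52_P35217 turned within the lower slides (0.0212), under scan day block or without wild-type array 3 (0.0172), without p53-null array 3 (0.0011), without wild-type array 1 (0.0132), and without wild-type array 3 and the array labelled wild type 5 (0.0066). Dim probes of Psrc1, Aen and Ptprv are limited by signal over background.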
